A study of Homo sapiens with 12 samples.

Results

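Border regions are the H3K9ac regions of MDA-MB-231 cells that lay just outside broad stretches of H3K9me2. They were chosen by position, at most 10 kb from the edge of a stretch that all 4 H3K9me2 libraries shared, and numbered 51 of 21312 autosomal H3K9ac regions.

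Lysine 9 of histone H3 can be acetylated or methylated, but not both on the same histone tail. Acetylation there (H3K9ac) marks active promoters and enhancers, where it is set by acetyltransferases such as GCN5 and PCAF and removed by histone deacetylases. Dimethylation of the same lysine (H3K9me2) is written mainly by the paired methyltransferases G9a and GLP, and it lies over broad silent domains, many of them at the nuclear periphery. At the border of such a domain both marks can lie close to each other on neighbouring nucleosomes.

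The cells were MDA-MB-231, an established line of triple negative breast cancer from ATCC, so all values come from 1 line. Treated cells were serum starved overnight and then kept for 24 h in 500 µM DETA/NO, a slow donor of nitric oxide. Untreated cells did not receive it, and the labels describe starvation only with the treatment. Chromatin was immunoprecipitated for H3K9ac and for H3K9me2 with 2 biological replicates for each mark in each condition, which gave 8 libraries and, with 4 inputs not analysed here, 12 samples.

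The choice used the measured intervals, in hg19 coordinates. The reproducible H3K9ac sets of treated and untreated cells were merged, which gave 21312 autosomal regions. The bases covered by H3K9me2 islands in all 4 H3K9me2 libraries formed 5504 autosomal common segments with a total of 83.7 Mb, and 3981 of them were at least 5 kb long and offered 7962 edges. A border region overlapped no common segment and lay at most 10 kb from an edge of a segment of that length. The rule found 51 of the 21312 regions, and they faced 46 of the 7962 edges. At 41 edges there was 1 border region, and at 5 edges there were 2. By comparison, 30 regions overlapped a common segment, and all others lay further away or next to shorter segments.

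The lists differed in size between libraries. Autosomal H3K9ac peaks numbered 77566 and 67395 in the treated libraries and 117307 and 57935 in the untreated libraries, and they covered 50.7 and 36.8 Mb in treated cells against 47.1 and 22.2 Mb in untreated cells. Autosomal H3K9me2 islands numbered 14464 and 10524 in the treated libraries and 12482 and 14361 in the untreated libraries. Untreated H3K9ac replicate 1 thus had the most peaks. Its peaks were spread almost evenly over islands and their flanks, with 37.5 per Mb in the 10 kb outside the edges and 39.9 per Mb within the common segments. In the same 2 compartments, treated replicate 1 had 3.86 and 1.52 peaks per Mb, treated replicate 2 had 11.2 and 8.98, and untreated replicate 2 had 16.2 and 14.5. How many reads each library had is not known here.

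The border regions were not piled up at the edges. Their density was 1.13 per Mb in the 10 kb outside the edges, over 45.3 Mb, against 1.56 per Mb between 10 and 50 kb outside, where 145 regions lay in 92.8 Mb. Within the common segments the density of H3K9ac regions was 0.359 per Mb. Along the 10 kb it was 1.52 per Mb in the first 2 kb, was 0.374 per Mb between 4 and 6 kb, and was 1.57 per Mb between 8 and 10 kb. The strip between 4 and 6 kb held 3 regions, so these densities rest on few regions each.

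The distance from a border region to its edge had a median of 2558 bp and ran between 80 and 9870 bp. Within 500 bp of the edge there were 4 regions, within 1000 bp 12, within 2000 bp 21 and within 5000 bp 31. The median distance was 2946 bp for the 14 regions of the treated set alone, 2558 bp for the 25 regions of both sets and 2606 bp for the 12 regions of the untreated set alone. Regions of each kind were therefore found over most of the range of distances, and 5 of 14, 11 of 25 and 5 of 12 of them lay within 2000 bp. The edge was the left end of its segment, in chromosome coordinates, for 33 regions and the right end for 18.

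**Figure D1:**
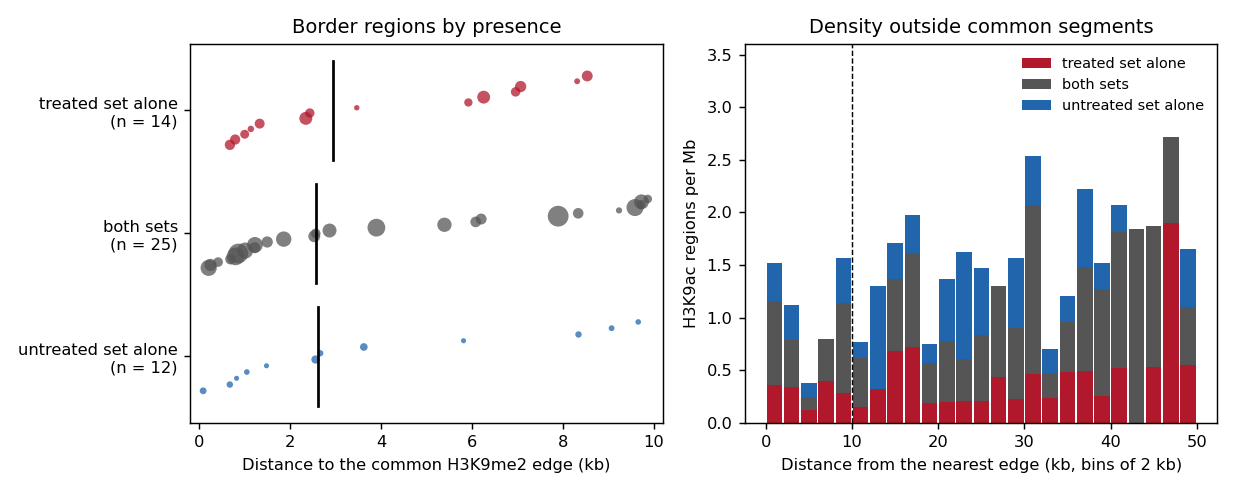
Left, distance of each of the 51 border regions to the common H3K9me2 edge (kb), by presence in the reproducible sets; points grow with region width and vertical bars are medians, at 2946, 2558 and 2606 bp. Right, H3K9ac regions per Mb in bins of 2 kb outward from the edges, stacked by presence, with the 10 kb limit dashed; the first bin stands at 1.52 per Mb and no peak of density is seen at the edge.

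Chromosome 6 held 21 of the 51 border regions, which is 22.8 per 1000 edges. Chromosome 11 held 9 of them at 1488 edges, or 6.05 per 1000, and chromosome 5 held 4 at 1902 edges, or 2.10 per 1000. The remainder lay on chromosomes 8 (6 regions), 1, 3, 7 and 20 (2 each) and 9, 12 and 17 (1 each). With few edges, 42 and 36, chromosomes 12 and 17 stood at 23.8 and 27.8 per 1000 edges from 1 region each. Chromosome 18 had 454 edges and chromosome 4 had 290, and neither had a border region. The presence of the regions also differed between chromosomes. On chromosome 6, 9 were in the treated set alone, 11 in both sets and 1 in the untreated set alone, whereas on chromosome 5 the counts were 0, 1 and 3, and on chromosome 11 they were 2, 4 and 3.

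The segments that border regions faced were longer than most. Their median length was 27750 bp, with a range of 5000 to 138500 bp, against 12000 bp for all common segments of at least 5 kb. No segment had a border region at both of its ends. For 6 regions, a further common segment of at least 5 kb lay within 10 kb on the other side, so that the region sat in a gap between a pair of segments. The narrowest such gap was 2000 bp, around the region chr6:67223447-67223684 of the untreated set alone, and islands of 3 libraries ran across the region. In the gap of 3000 bp around chr6:46458754-46459715, a region of the treated set alone, no island of any library touched the region.

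Presence by condition was uneven. Of the 51 border regions, 14 (27.5%, Wilson 95% interval 17.1 to 40.9%) were in the treated set alone, where the background over all merged regions was 43.1%. In the untreated set alone were 12 (23.5%, interval 14.0 to 36.8%), with a background of 4.70%. Both sets held 25 (49.0%), near the 52.2% of all merged regions. The share in the treated set alone was thus below its background and that in the untreated set alone above it. This was not particular to border regions, since regions further out had a like mix. Outside the edges, the bins of 2 kb from 10 to 20 kb held 5, 8, 10, 11 and 4 regions. Of these, 1, 6, 2, 2 and 1 were in the untreated set alone. In the treated set alone were 1, 2, 4, 4 and 1. The Wilson intervals of the border regions cover counting error only and take the regions as independent, though some shared an edge. The rule used the same sets, and no condition had a replicate set, so the shares are a description and were given no test. With chromosome 6 left out, a choice made after seeing the data, the share in the treated set alone was 16.7% and that in the untreated set alone 36.7%. The background without chromosome 6 was not computed.

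In the lists of single libraries, an H3K9ac peak met 39 and 39 of the 51 regions in the treated libraries and 45 and 41 in the untreated libraries. For the 21261 other regions, the shares were 96.5 and 96.8% in the treated libraries and 81.9 and 73.4% in the untreated libraries. All 4 libraries had a peak in 27 border regions (52.9%), where the background over all merged regions was 66.1%. A peak in both treated libraries and neither untreated library was found in 4 border regions (7.84%), where the background over all merged regions was 14.7%. The mirror case was found in 12, where it was 2.90%. These 12 were the regions of the untreated set alone, so this count repeats the one above. By the single lists, therefore, 4 of the 14 regions of the treated set alone lacked an H3K9ac peak in both untreated libraries.

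The 12 regions of the untreated set alone were narrow. Their median width was 341 bp, close to the 400 bp of the 989 other regions of that kind. The narrowest peak that the authors' caller reported was 238 bp wide in untreated replicate 1 and 175 bp in untreated replicate 2. Peak cover within 5 bp of that narrowest width was found in 6 of the 12 regions in replicate 1 and in 9 of the 12 in replicate 2. Peaks this narrow made up 51.3% of the list of untreated replicate 1 and 33.0% of that of untreated replicate 2, and their part in the presence counts was not tested.

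Border regions of both sets had a median width of 1377 bp, against 2390 bp for other H3K9ac regions of both sets. Over all 51 the median was 962 bp, with a range of 238 to 3969 bp, against 1532 bp for the other regions. For the treated set alone the medians were 871 and 879 bp, so that these differed little. The authors' score of a border region ranked at a median of 37.7% from the bottom of the treated set and 33.0% from the bottom of the untreated set. For other regions these ranks were 50.2 and 54.3%.

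The H3K9ac of a border region was then measured as the length covered by each library's peaks within the merged region. The mean per region was 1056 and 839 bp in the treated libraries, against 679 and 459 bp in the untreated libraries. The treated values were both higher than the untreated ones. The means were 948 ± 154 bp in treated cells and 569 ± 156 bp in untreated cells (SD, n = 2 each), a difference of 379 bp and a ratio of 1.67. For the 21261 other regions they were 1598 ± 232 bp in treated cells and 848 ± 171 bp in untreated cells (SD, n = 2 each), a ratio of 1.88. Because the regions were chosen by the presence of H3K9ac, these values are a description and were given no test.

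Regions of both sets had a ratio near that of like regions elsewhere. Their mean cover was 1673 and 1362 bp in the treated libraries, against 1061 and 807 bp in the untreated libraries, and the ratio of the means was 1.62, against 1.68 for the other regions of both sets. Regions of the treated set alone had 861 and 625 bp in the treated libraries, against 328 and 57.4 bp in the untreated libraries. Regions of the untreated set alone were at 0 in both treated libraries, against 293 and 200 bp in the untreated libraries.

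Region by region, both treated libraries had more H3K9ac cover than both untreated libraries in 31 of the 51 border regions (60.8%), where the background over all merged regions was 85.8%. Both treated libraries had less in 12 regions (23.5%), where the background was 3.98%. These were the same 12 regions that were present in the untreated set alone, so this order largely follows from the choice. Among the 25 regions of both sets, treated cover was above untreated cover in 19 (76.0%, background 89.8%) and below it in 0 (background 0.530%). In 22 of these 25 (88.0%) the region was also wider in the treated set than in the untreated set, against a background of 96.9%. More H3K9ac cover in treated cells was thus the usual order among border regions of both sets, and it was also the usual order over all regions.

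**Figure D2:**
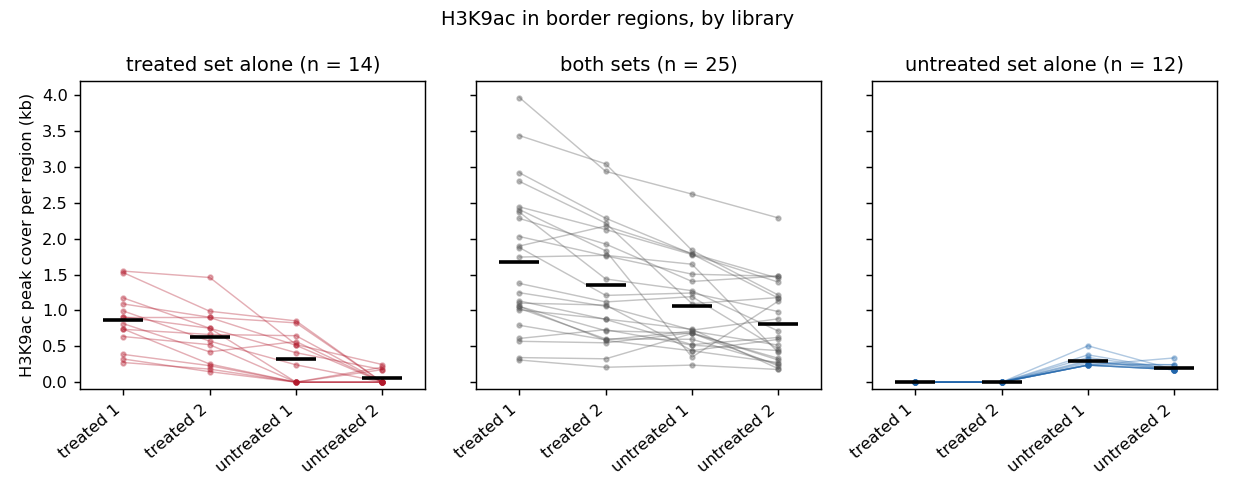
Length covered by H3K9ac peaks (kb) in each border region, for the 2 treated and 2 untreated libraries, in separate panels by presence; thin lines join the values of 1 region and thick bars are means over regions. In regions of both sets the means are 1673 and 1362 bp in treated libraries and 1061 and 807 bp in untreated libraries, and regions of the untreated set alone have none in treated libraries.

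Of the regions of both sets, chr6:46619203-46621623 was the nearest to an edge, 202 bp from the right end of a common segment of 48000 bp. It had 2370 and 1439 bp of H3K9ac cover in the treated libraries, against 1276 and 712 bp in the untreated libraries. The island of untreated replicate 1 ran on through the whole region to 82500 bp beyond the edge, while those of the other libraries ended 500, 0 and 0 bp beyond it. The next nearest, chr6:28983881-28985257, lay 243 bp from an edge and had 1377 and 1119 bp in treated libraries, against 1193 and 463 bp in untreated libraries. Here 3 islands ended 500 bp beyond the edge and that of untreated replicate 2 at the edge. The region chr6:28366735-28367590 lay 410 bp from an edge at which all 4 islands ended in the same grid step of 500 bp. It had 793 and 591 bp in the treated libraries, against 712 and 517 bp in the untreated libraries, so the groups overlapped here, as they did at chr6:28983881-28985257. The region chr6:70576796-70577817, at 683 bp, had 1008 and 881 bp in treated libraries against 738 and 188 bp in untreated libraries. As at the nearest region, the island of untreated replicate 1 ran on, to 69500 bp beyond the edge, where the other islands ended 500, 0 and 0 bp beyond it.

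The regions with the highest authors' scores in the treated set lay at distances between 795 and 9731 bp. The top one, chr6:27861135-27865103, was also the widest border region, at 3969 bp. It had 3969 and 2940 bp of H3K9ac cover in the treated libraries, against 2623 and 2291 bp in the untreated libraries, and lay 7897 bp from the left end of a segment of 38000 bp. A further region of both sets, chr6:27869591-27871997, stood between it and the same edge, 1003 bp away, with 2407 and 1832 bp in treated libraries against 349 and 1131 bp in untreated libraries. The pair thus faced 1 edge, at which the islands reached 1500 and 0 bp outward in treated cells and 0 and 1500 bp in untreated cells. The region chr7:21983296-21986215, at 795 bp, faced the longest bordered segment, of 138500 bp, and had 2920 and 2286 bp in treated libraries against 1787 and 1172 bp in untreated libraries. Islands reached 500 and 500 bp beyond this edge in treated cells and 0 and 1000 bp in untreated cells. The other high-scoring regions were chr11:123610969-123613146, with 1899 and 2178 bp in treated libraries against 1794 and 1449 bp in untreated libraries, and chr11:94882739-94884769, with 2031 and 1762 bp in treated libraries against 1506 and 1477 bp in untreated libraries. In these 5 regions both treated libraries had more cover than both untreated ones. At chr7:143597730-143599607, also among the highest scores, the groups overlapped, with 1878 and 1210 bp in treated libraries against 1244 and 985 bp in untreated libraries. Among the widest border regions outside chromosome 8, chr20:58514090-58516772, of 2683 bp, lay 9589 bp from its edge and had 2445 and 2129 bp in treated libraries against 1779 and 1396 bp in untreated libraries.

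Among regions of the treated set alone, chr6:45982839-45983830 lay nearest to an edge, at 670 bp. It had 992 and 572 bp of H3K9ac cover in the treated libraries, against 242 and 0 bp in the untreated libraries, and all 4 islands ended at the edge itself. The region chr6:46458754-46459715, at 785 bp, had 902 and 902 bp in treated libraries against 514 and 0 bp in untreated libraries. The region chr6:28554632-28555018, at 1131 bp, had 387 and 230 bp in treated libraries against 0 and 0 bp in untreated libraries. At its edge the islands reached 33000 and 0 bp outward in treated cells and 500 and 35500 bp in untreated cells, so the long reach was found in 1 library of each condition. At chr6:45982839-45983830 the higher H3K9ac cover of treated cells thus stood beside an edge that lay in the same grid step in all 4 libraries. The region chr6:22828496-22829235, at 995 bp, had 740 and 253 bp in treated libraries against 0 and 175 bp in untreated libraries. The region chr11:110583266-110584175, at 1325 bp, had 910 and 752 bp in treated libraries against 411 and 175 bp in untreated libraries. The treated libraries were above the untreated ones in all 5 of these regions. The regions were chosen as present in the treated set alone, so this order largely follows from the choice.

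Among regions of the untreated set alone, chr11:22492492-22492920 lay 80 bp from an edge, the smallest distance of all. It had 0 and 0 bp of H3K9ac cover in the treated libraries, against 344 and 175 bp in the untreated libraries. Islands reached 500 and 4500 bp beyond the edge in treated cells and 11500 and 0 bp in untreated cells, so H3K9me2 overlapped the region in 3 libraries. The regions chr6:67223447-67223684 and chr5:3020476-3020713 each had 238 and 175 bp in the untreated libraries, the narrowest peak width of each list, and 0 in both treated libraries. Both were overlapped by islands of 3 libraries. The region chr11:48675164-48675458, at 1042 bp, had 265 and 241 bp in untreated libraries, and chr17:50762327-50762947, at 2553 bp, had 507 and 175 bp, with 0 in both treated libraries at each. Islands overlapped them in 3 and in 2 libraries.

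The regions nearest the 10 kb limit were of several kinds. Just inside it lay chr5:21459371-21460049, at 9870 bp and in both sets, and chr11:94882739-94884769, at 9731 bp and in both sets. Just outside it lay chr5:50259023-50259631, at 10369 bp and in the treated set alone, and chr1:197169114-197172199, at 11301 bp and in both sets, followed by a region of the untreated set alone at 11670 bp.

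Border regions were kept off the common segments by the rule, but islands of single libraries could still run over them. Islands overlapped 17 and 13 of the 51 regions in the treated libraries and 14 and 11 in the untreated libraries. The ranges of the conditions overlapped. The means were 15.0 ± 2.83 in treated cells and 12.5 ± 2.12 in untreated cells (SD, n = 2 each), a difference of 2.5 regions (exact permutation test of the labels, two-sided p = 0.667, where 4 libraries allow no p below 0.333). No library's island touched 25 regions, while islands of 1 library touched 7, of 2 libraries 9 and of 3 libraries 10.

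Overlap with an island varied with presence. Of the 12 regions of the untreated set alone, 10 were overlapped by an island of some library, against 6 of 14 in the treated set alone and 10 of 25 in both sets. The 12 were overlapped in 5 and 9 cases by islands of the treated libraries and in 8 and 4 cases by those of the untreated libraries, so the conditions overlapped here too. Elsewhere in the genome the untreated set alone also had the largest share overlapped by an island, 145 of 989 regions (14.7%). The counts were 24 of 9162 in the treated set alone (0.262%) and 55 of 11110 in both sets (0.495%). The treated set alone thus lay below both sets there, but slightly above them among border regions. The counts elsewhere include regions that overlapped a common segment, which the rule barred from border regions. These numbered 26 in the untreated set alone, 3 in the treated set alone and 1 in both sets. The rule placed border regions beside islands, so the levels themselves are not set against each other.

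Around the 51 regions H3K9me2 cover was lowest at the region itself and in part higher again beyond it. On the island side, islands covered 71.2 and 73.1% of the nearest 10 kb in treated libraries and 67.8 and 68.7% in untreated libraries. On the outer side they covered 29.7 and 24.1% of the nearest 10 kb in treated libraries and 30.8 and 28.5% in untreated libraries. The island side is high by the rule, and the region itself was barred from common segments. The outer side is the side away from the nearest common segment of at least 5 kb, so its lower cover is in part set by the rule too. Between 10 and 50 kb on the outer side, cover was 37.4 and 34.2% in treated libraries and 43.7 and 37.3% in untreated libraries. Within 10 kb on the outer side the conditions overlapped, and the lowest cover in both outer windows was that of treated replicate 2.

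**Figure D3:**
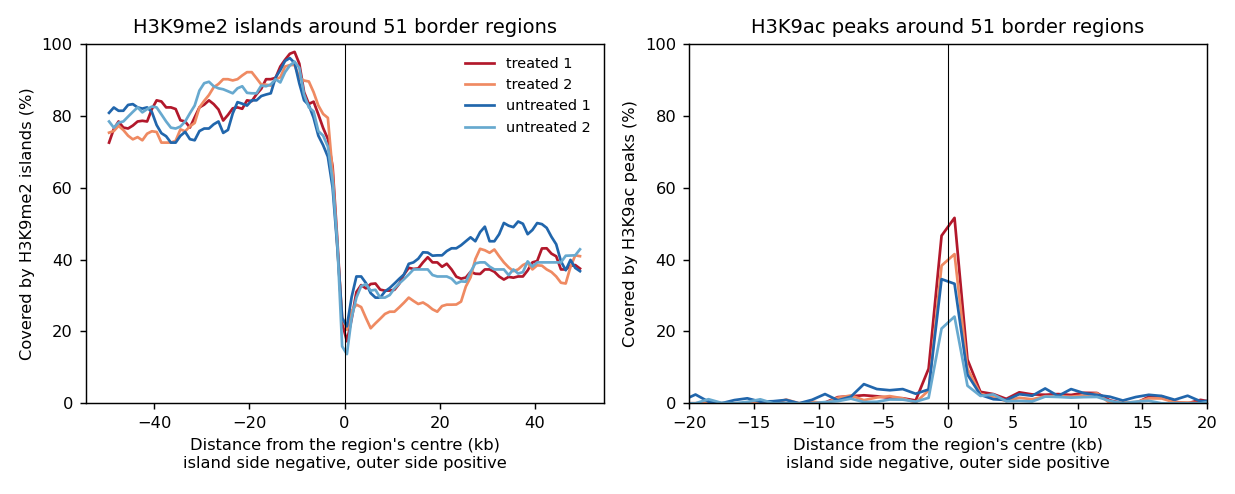
Percent of bases covered by H3K9me2 islands (left, 50 kb to each side) and by H3K9ac peaks (right, 20 kb to each side) around the centres of the 51 border regions, by library, with the island side negative. H3K9me2 cover is 67.8 to 73.1% in the 10 kb on the island side and 24.1 to 30.8% in the 10 kb on the outer side, and the libraries lie further apart on the outer side beyond 10 kb.

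Whether the edge moved was asked with the reach of each library, the distance by which its island ran outward beyond the common edge. The common edge is the innermost of the 4 ends, so at least 1 library is at 0 by construction. At the 46 edges the mean reach was 6543 and 5391 bp in the treated libraries, against 9283 and 4261 bp in the untreated libraries. The untreated libraries lay on either side of the treated ones. The means were 5967 ± 815 bp in treated cells and 6772 ± 3551 bp in untreated cells (SD, n = 2 each), a difference of -804 bp (exact permutation test, two-sided p = 1). The median reach was 500 bp, 1 step of the island grid, in each of the 4 libraries.

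The sign of that difference varied with the libraries and edges taken. Without untreated replicate 1 it was 1707 bp, at the 35 edges that faced regions of the treated set or both sets it was 750 bp, and without chromosome 6 it was 1315 bp. The mean reach was larger in treated cells at 20 edges and larger in untreated cells at 17. Both treated islands ran further out than both untreated ones at 5 of the 46 edges (10.9%), where the background over all 7962 edges was 11.0%. The reverse was found at 1 edge (2.17%), where the background was 11.9%. The mean difference was thus smaller than the spread between replicates, and neither direction was more frequent than over all edges.

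A limma fit of log2(reach + 500 bp) over all 7962 edges called 0 edges at an adjusted p of 0.05, a background of 0%. The smallest adjusted p (limma, Benjamini-Hochberg over all edges) among the 46 was 0.609, and 3 of the 46 had an unadjusted p under 0.05, against 309 of all 7962. The median log2 difference, treated minus untreated on the log2(reach + 500 bp) scale, was 0.10 at the 46 edges and 0 over all. Changes of reach could not be called with 2 libraries per condition and this spread, so the count of 0 does not show that edges stayed in place.

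The edges at which the conditions did not overlap were few. At chr11, position 94894501, islands reached 4500 and 7500 bp outward in treated cells, against 0 and 500 bp in untreated cells. At chr12, position 98468501, they reached 2000 and 7000 bp in treated cells, against 0 and 500 bp in untreated cells. At chr1, position 220698000, the reach was 2000 and 1500 bp in treated cells, against 1000 and 0 bp in untreated cells. In each of these the islands of treated cells ran further out, and 2 more such edges lay on chromosome 8. The reverse edge, chr5 at 19290001, had 0 and 0 bp in treated cells, against 67500 and 500 bp in untreated cells, so that nearly all of it was the island of untreated replicate 1.

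Set against the region itself, the island end stopped short of the border region in 38 and 39 of 51 cases in treated libraries and in 38 and 42 cases in untreated libraries. It ended inside the region in 7 and 3 cases in treated libraries and in 3 and 4 cases in untreated libraries, and it ran past the region in 6 and 9 cases in treated libraries and in 10 and 5 in untreated libraries. These ends are those of the islands that hold the common edge, and all 4 stopped short of 29 regions. A separate island could still lie on such a region, and no island of any library touched 25 regions. At chr6:54711038-54712128, for instance, a separate island of treated replicate 1 covered the whole region. In 0 regions did both islands of 1 condition run past while both of the other stopped short (Wilson 95% interval up to 7.00%). This interval covers counting error only and takes the regions as independent. It leaves out the spread between libraries, so it sets no limit on how often edges moved. No like share was computed for other regions.

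**Figure D4:**
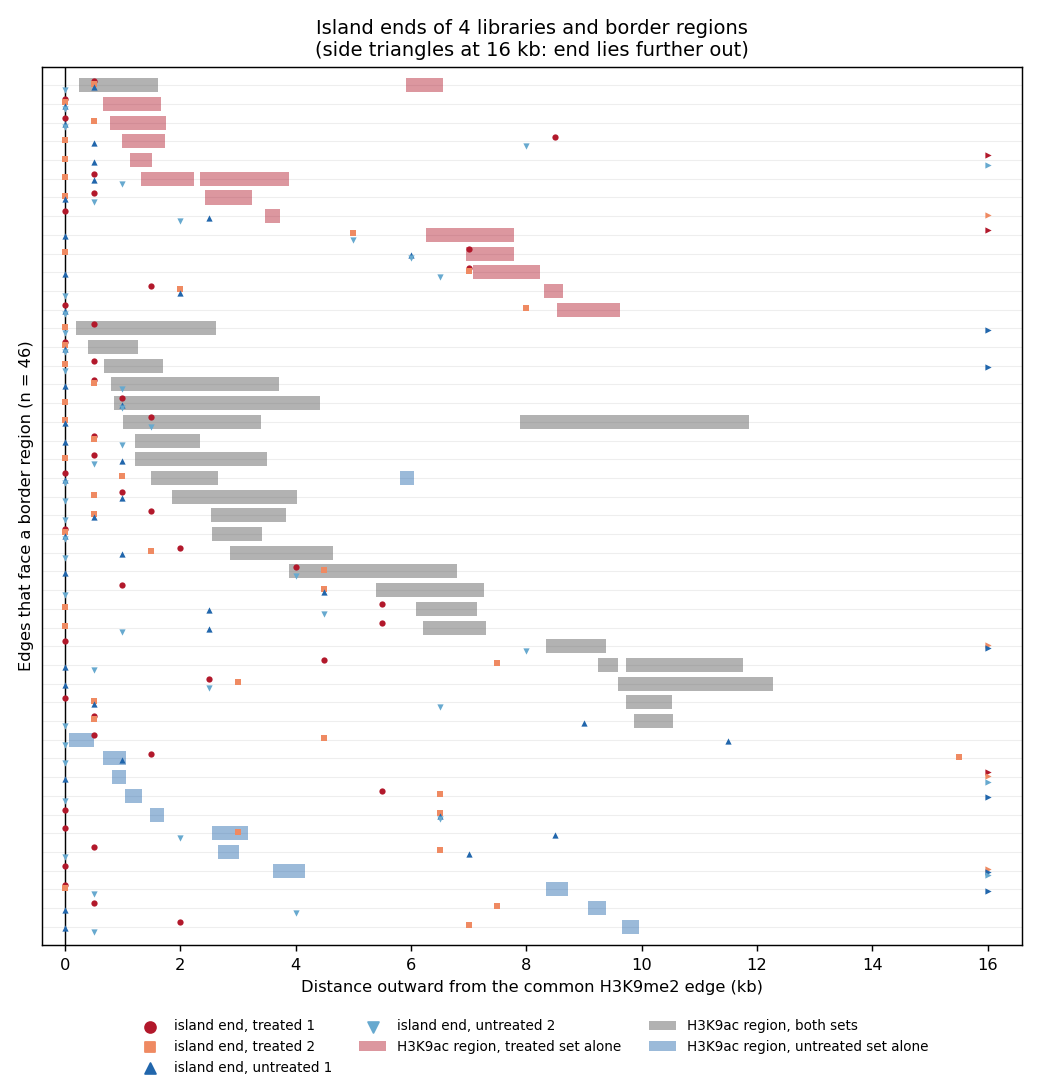
The 46 edges that face a border region, 1 per row, with distance outward from the common edge (kb); boxes are H3K9ac regions coloured by presence and symbols are the island ends of the 2 treated and 2 untreated libraries, with side triangles for ends beyond 16 kb. Most ends lie within a few grid steps of the edge in all libraries. The islands that hold the edge stop short of 29 of the 51 regions in all 4 libraries, and separate islands further out are not drawn.

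At edges that faced a border region, the 4 islands tended to end near each other. All 4 island ends lay within 2 kb of each other at 17 of the 46 edges (37.0%, Wilson 95% interval 24.5 to 51.4%), against 638 of 7916 edges that faced none (8.06%, interval 7.48 to 8.68%). The farthest of the 4 ends lay at a median of 6500 bp from the common edge at edges facing a region, against 24500 bp at the others. Few H3K9ac regions overlapped an island of any library (1.17% of all merged regions). Facing edges were chosen for a region just outside, and the part of this choice in their short reach was not tested. These values are therefore a description. Mean reach at facing edges was 0.335 and 0.314 times that at the other edges in the treated libraries and 0.553 and 0.184 times in the untreated libraries. It was lower in 4 of 4 libraries, by a mean log2 ratio of -1.64 ± 0.65 (SD, n = 4). The libraries share 1 common edge and 1 choice of edges, so they are not independent here and these values were given no test.

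All of these 17 edges lay beside regions of the treated set or both sets. They were 17 of 35 such edges (48.6%, interval 33.0 to 64.4%). At the 11 edges that faced only a region of the untreated set alone the count was 0 (interval up to 25.9%). The rule chose these edges and used the same sets, so the counts are a description, and the intervals cover counting error only. Segment length went with presence: these 11 edges belonged to segments of 5500 to 18000 bp, all shorter than the bordered median of 27750 bp, whereas the segments of the other 35 had a median of 42500 bp. Among segments shorter than 27750 bp the counts were 3 of 12 beside regions of the treated set or both sets and 0 of 11 beside regions of the untreated set alone, and the part of segment length in the contrast was not tested. The median of the farthest end was 3000 bp beside regions of the treated set or both sets and 11500 bp beside regions of the untreated set alone.

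The share of edges with all 4 ends within 2 kb was also higher at facing edges within chromosome 6 and among long segments. On chromosome 6, 11 of 19 facing edges had all 4 ends within 2 kb (57.9%), against 114 of 901 others (12.7%). On the other chromosomes the counts were 6 of 27 (22.2%) at facing edges, against 7.47% of 7015 others. Among segments of at least 27750 bp, 14 of 23 facing edges were of this kind (60.9%), against 187 of 1539 others (12.2%). Among shorter segments it was 3 of 23 (13.0%, interval 4.54 to 32.1%), against 7.07% of 6377, so the shares lay closer together there. These counts are likewise a description, since facing edges were chosen for a region just outside.

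**Figure D5:**
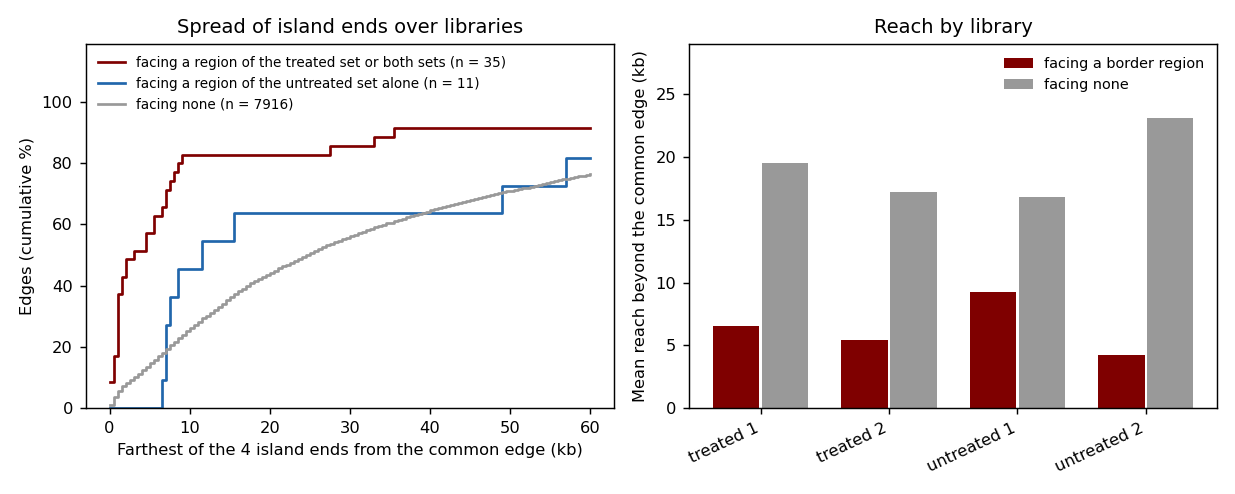
Left, cumulative percent of edges by the farthest of the 4 island ends from the common edge (kb), for edges facing a region of the treated set or both sets (n = 35), of the untreated set alone (n = 11) and none (n = 7916). Right, mean reach (kb) by library; bars of edges facing a region stand at 6543, 5391, 9283 and 4261 bp and those of the other edges at 19553, 17189, 16790 and 23129 bp.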

How the data were processed

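Chromatin immunoprecipitation of H3K9ac and H3K9me2 was compared between treated and untreated MDA-MB-231 cells. Coordinates are on hg19, per the submitters' processing notes, which list MACS2 and SICER as well as Trimmomatic 0.32, BWA 0.7.5 and Picard. Which caller made each list, with what settings and from how many reads, is not stated in any source used. The authors deposited 10 interval lists without headers, of which the reproducible sets combine the libraries of a condition and the others come from single libraries. The score in the 2 reproducible sets was taken as a deposited −log10 irreproducible discovery rate, since the lowest score, 1.301, corresponds to 0.05. Library lists carry an authors' score, used here only to rank intervals. H3K9me2 islands lie on a grid of 500 bp, and their deposited ends were extended by 1 bp.

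Members and lists were chosen with earlier results of these data known. A shared base was enough for an overlap. Regions named were, with chromosome 8 left out before ranking, the 5 nearest to an edge by presence, the 5 of highest score, the 5 widest, those at the 10 kb limit and edges with conditions that do not overlap. Intervals were intersected with numpy 2.4.6 and pandas 2.3.3 (Python 3.11.15), figures were drawn with matplotlib 3.10.9, and reach was fitted with limma 3.58.1 in R 4.3.3 with a trend and a pseudocount of 500 bp. The fit was tested on simulated data, where it recovered changes laid over a small spread and none laid over the real one. Means of treated and untreated libraries were tested by permuting labels exactly, and Wilson intervals were computed with SciPy 1.17.1. Sequence, genes and cell type markers at the regions were not analysed here, because the reference used here is of another build.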

Additional observations from a re-analysis of the deposited data

How the results depend on the processing

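The number of border regions was 51. It was 31 with a distance limit of 5 kb, 89 with 20 kb, 23 with islands above the median score of each H3K9me2 list, 17 with regions above the median score of each H3K9ac set, and 69 to 76 when 1 H3K9me2 library was left out. The share in the treated set alone, 27.5%, was 5.13% with the treated set limited to the size of the untreated set, 7.84% with presence from the library lists (where all merged regions had 14.7%) and 16.7% without chromosome 6. The share in the untreated set alone, 23.5%, was 43.6% with the limited treated set. Shares of all merged regions were not computed with the limited treated set or without chromosome 6. The values under these settings are therefore not to be set against the backgrounds of the full sets. The difference in H3K9ac cover, 379 bp, was 583 bp in regions of both sets and 269 to 489 bp when 1 library was left out.

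The difference in reach, treated minus untreated, was -804 bp. It was 0 bp as a median over edges, 750 bp at edges of regions in the treated set or both sets, 1315 bp without chromosome 6, and -3315 to 1707 bp when 1 library was left out, with 1707 bp without untreated replicate 1, -3315 bp without untreated replicate 2, -1380 bp without treated replicate 1 and -228 bp without treated replicate 2. The cause was not tested. The subsets by set and by chromosome 6 were chosen after seeing the data. The difference in overlapped regions, 2.5, was 0.5 without treated replicate 1, 4.5 without treated replicate 2, and between these without either untreated library. The limma fit called 0 edges under each of its 8 alternatives, with 37 to 1286 edges at an unadjusted p under 0.05.

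Same-numbered libraries did not deviate together (r = -0.16 for log2 reach over 7962 edges and -0.11 for H3K9ac cover over 21312 regions). Whether they shared a batch is not known here. With the replicate block, the reach difference was -804 bp, the H3K9ac difference 379 bp and the overlap difference 2.5 regions, as without it, and limma called 0 edges with 185 at an unadjusted p under 0.05. With crossed numbers limma also called 0, with 369.

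Without read depths, the absence of a peak or island in a list cannot be told apart from low depth. With 2 libraries per condition no p from permuting the treatment labels can fall below 0.333. The grid of 500 bp limits the position of every island end.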

Other observations

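The same rule applied to chromosome X found 0 of 605 H3K9ac regions, at 2 edges. Of the 30 autosomal H3K9ac regions that overlapped a common segment, 3 were in the treated set alone, 1 in both sets and 26 in the untreated set alone (86.7%, Wilson 95% interval 70.3 to 94.7%). On chromosome 12, the edge with the non-overlapping reach of 2000 and 7000 bp in treated cells against 0 and 500 bp in untreated cells faced a region of the untreated set alone of 286 bp. That region lay 9660 bp from the edge, so none of these islands reached it. A separate island of treated replicate 2 covered all of it. Its H3K9ac cover was 286 and 175 bp in the untreated libraries, and 175 bp is the narrowest peak width of untreated replicate 2.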
